A study of Arabidopsis thaliana with 47 samples.

Results

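The comparison described here set root meristem tissue of plt2/gPLT2C212S-GFP seedlings treated with 5 nM RGF1 against the same tissue under mock treatment. It took in the 6 treated and the 5 mock libraries of that line, 11 of the 47 RNA-seq libraries of the study, chosen by the genotype and treatment named in their labels. The study crossed 3 Arabidopsis thaliana genotypes, namely plt2 alone, plt2/gPLT2-GFP and also plt2/gPLT2C212S-GFP, with 3 treatments (mock, 0.3 nM and 5 nM RGF1). Groups held 5 libraries each, or 6 for both transgenic lines at 5 nM. All 9 groups carried the plt2 mutation, the mock groups included. Seedlings were 6 days old, treatment lasted 24 h, and 50 dissected root sections were pooled into each RNA sample. The labels do not give the number of independent insertions behind a transgenic line or the promoter of the transgene, and they do not say whether the libraries of a group came from separate experiments. The p-values therefore measure the spread between these libraries, which may be partly technical. The lines plt2/gPLT2-GFP and plt2/gPLT2C212S-GFP are called gPLT2 and gPLT2C212S from here on.

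RGF1 (ROOT MERISTEM GROWTH FACTOR 1) is a small secreted peptide that is sulfated on a tyrosine by the enzyme TPST and made in the stem cell niche and the central root cap. Leucine-rich repeat receptor kinases of the RGI family perceive it, and their activity shifts the balance of superoxide and hydrogen peroxide along the root tip. Downstream stands PLETHORA 2 (PLT2), an AP2-type transcription factor that forms a protein gradient in the meristem, keeps cells dividing at high dose and lets them leave the cell cycle at low dose. The series was designed around the stability of the PLT2 protein and its modification by redox chemistry. In the gPLT2C212S line the transgene encodes PLT2 with a serine in place of a cysteine, the amino acid whose thiol group such chemistry modifies.

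The reference coding sequence around that cysteine is shown because the residue defines the line. It lies at chr1:18978460-18978522 of TAIR10.1 on the plus strand, within coding segment 3 of 8 of PLT2 (AT1G51190), whose RefSeq protein has 568 residues. Capitals mark the codon of residue 212.
PLT2: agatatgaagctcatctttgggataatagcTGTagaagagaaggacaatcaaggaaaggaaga
The codon TGT encodes cysteine. The label of the line gives the substitution as C212S, and the serine codon used in the transgene is not given in the sources used here.

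The 11 libraries had total counts between 8075980 and 9380082 over nuclear and organelle loci, of which 2312124 to 3678400 fell on nuclear loci. The mitochondrial loci ATMG00020 and ATMG01390 together held 62.0 ± 4.38% of all counts in the mock libraries and 65.4 ± 4.28% in the treated ones (SD, n = 5 and 6). That difference of 3.38 percentage points did not pass a two-sided exact permutation test (p = 0.2294). Levels are given below as CPM, the counts on nuclear loci scaled per library by depth and TMM factor, in the order of mock libraries 1 to 5, and for the 6 treated libraries as the range with the median. A count of 3 in a library, taken as the floor of detection, corresponds to 0.814 to 1.21 CPM. Log2 fold changes are for 5 nM RGF1 against mock with their standard error. That error was back-calculated, as the absolute change divided by the square root of the F statistic of the edgeR test named next. A gene is said to have risen or fallen where the Benjamini-Hochberg adjusted p of edgeR's quasi-likelihood test, taken over all genes tested, was under 0.05.

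PLT2 itself checked the labels. Its mean level under mock was 7.25 ± 2.95 CPM in plt2, 43.1 ± 3.66 CPM in gPLT2 and 69.8 ± 11.3 CPM in gPLT2C212S (SD over 5 libraries each). At 0.3 nM the 3 means were 7.74 ± 3.01, 37.8 ± 5.60 and 55.6 ± 5.14 CPM, over 5 libraries each. Treatment with 5 nM gave 6.23 ± 1.07 CPM in plt2 over 5 libraries, then 59.6 ± 7.46 CPM in gPLT2 and 81.6 ± 8.77 CPM in gPLT2C212S over 6 libraries each. The transgenic libraries were thus far above plt2 at each dose, as their labels imply, although reads of the mutant endogenous gene and of the transgene cannot be told apart. The substitution itself was not read from the counts. Within gPLT2C212S the mock libraries held 61.5, 69.0, 84.6, 56.9 and 77.0 CPM and the treated ones 72.0 to 93.7 CPM (median 80.0). The groups overlapped, and the log2 fold change of 0.24 ± 0.12 was not called (adjusted p = 0.1).

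The transcript change that 5 nM RGF1 brought to the gPLT2C212S meristem was broad. Of 15986 genes tested 6432 were called, a share of 40.2 percent, with 2994 higher (18.7 percent) and 3438 lower (21.5 percent). At an unadjusted p under 0.05 stood 7626 genes. A change of at least 2-fold was called for 628 higher genes (3.93 percent) and 883 lower genes (5.52 percent). Scaling by total counts, with organelle counts included, in place of TMM moved the median gene by -0.13 on the log2 scale and gave 1445 higher and 3666 lower calls. Under TMM 46.5% of the calls were higher, and under total counts 28.3%. The median log2 fold change over all genes tested was -0.0011 under TMM. For 1508 genes, 9.52 percent of those compared, every treated library lay above every mock library, and for 2024 genes (12.8 percent) every treated library lay below. The count of members called in any list of genes is to be read against these shares. The lists were chosen with earlier results of these data known, so a count above these shares is a description and not a test. In whole tissue sections, fewer cells of a type and less RNA per cell cannot be told apart.

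**Figure D1:**
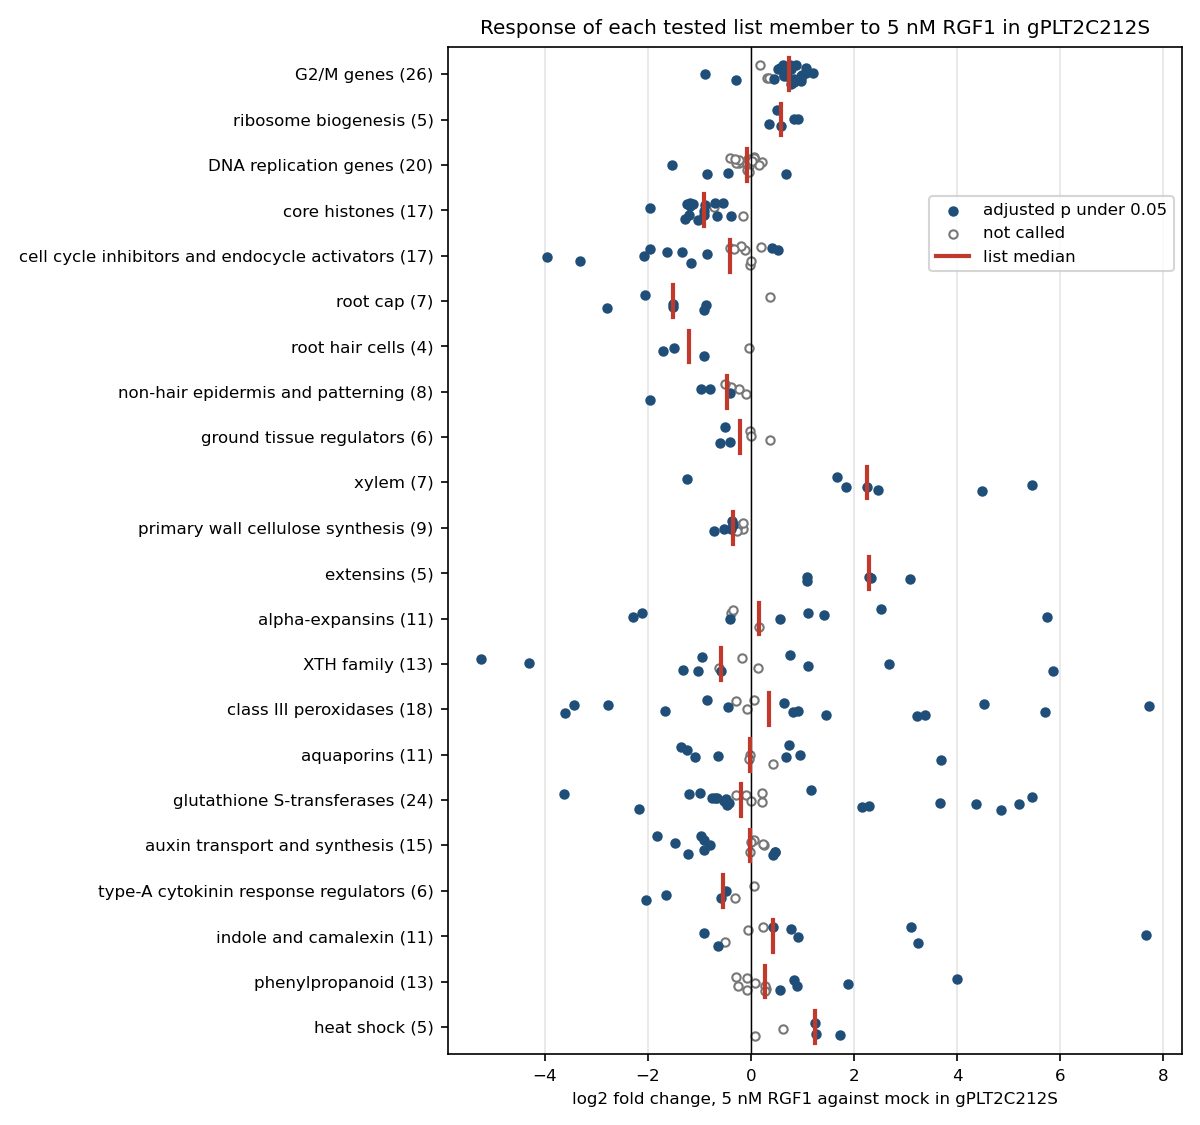
Log2 fold change at 5 nM RGF1 against mock in gPLT2C212S (x axis) for each tested member of 22 gene lists (rows, number tested in brackets). Filled points passed an adjusted p under 0.05, open points did not, and the red bar is the list median, which was 0.73 for G2/M genes, -0.92 for core histones, -1.51 for root cap genes and 2.25 for xylem genes.

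The genes that make and perceive RGF peptides changed in both directions. RGF2 and RGF3, which encode sister peptides of RGF1, fell steeply. RGF2 was at 28.8, 13.2, 17.36, 11.4 and 10.01 CPM in the mock libraries and at 0 to 2.42 CPM (median 0.494) with 5 nM RGF1. RGF3 was at 133, 85.5, 78.7, 62.3 and 49.7 CPM and 3.91 to 13.7 CPM (median 6.05). No treated library reached the lowest mock library for either gene, with log2 fold changes of -4.26 ± 0.43 for RGF2 (adjusted p = 2.1e-08) and -3.57 ± 0.25 for RGF3 (adjusted p = 2.5e-11). TPST, the sulfotransferase that activates these peptides, fell by 0.55 (adjusted p = 0.0016), from 46.4, 35.0, 37.4, 43.3 and 49.0 CPM to 23.2 to 35.0 CPM (median 28.6). Its highest treated library matched the lowest mock library to the digits shown. RGF1 was too low to be tested, with 42 counts over the 5 mock and 20 over the 6 treated libraries.

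Each of the 5 RGI receptor genes was called, 3 higher and 2 lower. Both genes that fell had separate groups: AT4G26540 (RGI3) went from 46.1, 53.5, 60.5, 64.8 and 47.7 CPM to 14.5 to 32.6 CPM (median 23.2), and AT5G56040 (RGI4) from 78.1, 87.1, 91.7, 106 and 82.7 CPM to 42.3 to 57.0 CPM (median 48.4). Their log2 fold changes were -1.19 ± 0.15 and -0.84 ± 0.11. Among those that rose, AT5G48940 (RGI2) went from 139, 137, 132, 136 and 172 CPM to 213 to 251 CPM (median 235) and AT1G34110 (RGI5) from 139, 150, 145, 157 and 177 CPM to 184 to 236 CPM (median 229). Both also had separate groups, with log2 fold changes of 0.71 ± 0.10 and 0.52 ± 0.10. The rise of RGI5 was not called under total-count scaling, which gave 1 higher and 2 lower calls in the list. AT3G24240 (RGI1) had overlapping groups and a change of 0.29 ± 0.10 (adjusted p = 0.022), which was lost in 3 of 19 alternative settings.

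Of the AP2/PLT factors, PLT1 alone among the 5 tested was called. PLT1, which acts redundantly with PLT2 in the stem cell niche, was at 31.3, 27.4, 27.9, 26.5 and 24.3 CPM under mock and at 5.42 to 12.5 CPM (median 7.17) with RGF1. The groups were separate and the log2 fold change was -1.799 ± 0.19 (adjusted p = 2.9e-08). Per length of transcript, its mean fell from 10.5 ± 1.05 FPKM (n = 5) to 3.08 ± 1.04 FPKM (n = 6), against 28.0 ± 4.44 and 33.3 ± 3.43 FPKM for PLT2. On the same FPKM scale AIL6, known as PLT3, was at 32.1 ± 1.39 and 34.8 ± 4.36. The log2 fold changes of AIL6, BBM and AIL5, which share roles in meristem maintenance, were 0.11 ± 0.10, -0.26 ± 0.24 and 0.14 ± 0.33. Their groups overlapped and none was called. AT2G12646, the PLATZ factor RITF1 that links RGF1 signalling to reactive oxygen species, had 39.0, 36.3, 46.4, 46.1 and 51.4 CPM in mock and 47.9 to 61.2 CPM (median 53.3) in treated libraries. Its change of 0.31 ± 0.12 was called at an adjusted p of 0.035 and was lost in 9 of 19 alternative settings.

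Genes of mitosis and cytokinesis rose together. Of 26 tested G2/M genes 21 were higher and 2 lower, with a median log2 fold change of 0.73, and in 16 of them every treated library lay above every mock library. HIK, the kinesin that organises the phragmoplast, was at 46.4, 42.9, 60.5, 56.9 and 64.4 CPM under mock and 95.5 to 117 CPM (median 106) with RGF1. KN (KNOLLE), the syntaxin that fuses vesicles at the cell plate, was at 35.9, 32.0, 42.3, 39.2 and 48.7 CPM and 64.9 to 90.9 CPM (median 78.0). Neither gene had overlapping groups, and the log2 fold changes were 0.96 ± 0.11 and 0.97 ± 0.12 (adjusted p = 2.5e-07 and 5.8e-07). Among B-type cyclins, which drive mitotic entry, CYCB2;4 rose by 1.07, CYCB2;2 by 0.99 and CYCB2;3 by 0.97. CYCB1;3 rose by 0.83, from 30.9, 39.3, 30.9, 36.7 and 29.7 CPM to 51.3 to 65.0 CPM (median 58.4), with separate groups. CYCB3;1 and CYCB1;4 had overlapping groups and changes of 0.18 and 0.30 that were not called. The 2 members that fell were CDKB1;1 and the centromeric histone HTR12, as the plot of cell cycle genes by library shows. Under total-count scaling the list had 17 higher and 1 lower calls.

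Core histone genes, which are transcribed mainly in S phase, went the other way. Of 17 tested members 15 fell and none rose, with a median of -0.92, and in 14 every treated library lay below every mock library. HTA10, an H2A gene, was at 165, 136, 184, 131 and 134 CPM under mock and 56.2 to 75.7 CPM (median 59.9) with RGF1. HIS4, an H4 gene, was at 57.7, 70.9, 82.5, 68.3 and 71.0 CPM and 22.0 to 34.7 CPM (median 28.7). Both had separate groups and log2 fold changes of -1.24 ± 0.12 and -1.29 ± 0.12. The H2A genes HTA6, HTA7 and HTA13 fell by 1.21, 1.12 and 1.18, and the H2B gene HTB2 by 1.19. HTB4, the most abundant gene of the list, was at 503, 467, 481, 388 and 444 CPM and 340 to 448 CPM (median 412), with a change of -0.15 ± 0.11 that was not called. HTA12 was not called either, at -0.73 ± 0.36. Histone genes of a class resemble each other closely, and how reads shared between copies were counted is not given in the sources used here, so the values of single histone genes are uncertain. Under total-count scaling the list again had 15 lower and 0 higher calls.

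Few DNA replication genes were called. Of 20 tested, 1 rose and 3 fell, and the median was -0.07. RNR1, the large subunit of ribonucleotide reductase, rose from 67.9, 85.1, 90.05, 88.5 and 90.0 CPM to 111 to 163 CPM (median 131), with separate groups. CDT1A, which licenses replication origins, fell from 60.1, 74.6, 69.7, 63.2 and 67.4 CPM to 32.7 to 43.1 CPM (median 34.1), again with separate groups. The log2 fold changes were 0.68 ± 0.11 and -0.85 ± 0.11. PCNA1, the sliding clamp of DNA polymerase, fell by 0.45 (adjusted p = 0.0011), and ORC1A, an origin recognition subunit at 9.84, 4.62, 8.14, 10.1 and 9.34 CPM under mock, by 1.54. MCM2 and ICU2 had changes of -0.12 ± 0.10 and 0.021 ± 0.11 and were not called.

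Short promoter stretches of mitotic and histone genes are shown because most tested members of each group were called in one direction and each has a known promoter motif. Printed are called members with the smallest p among those whose window held the motif and whose stretch overlapped no exon. They were thus chosen for having the motif and do not stand for their group. Letters are from the 250 bases before the RefSeq gene start in TAIR10.1, each printed stretch holds up to 30 bases on either side of the match within that window, and capitals mark the motif on either strand. The first motif is AACGG, counted on both strands, the core of the element that MYB3R factors bind in G2/M promoters. HIK is at chr1:6324379-6324419, KN at chr1:2711001-2711042 and CYCB2;3 at chr1:7137841-7137905, all on the minus strand. The window of CYCB2;3 held 3 matches, of which the stretch shows a pair.
HIK: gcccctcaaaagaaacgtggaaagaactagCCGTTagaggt
KN: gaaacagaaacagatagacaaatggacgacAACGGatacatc
CYCB2;3: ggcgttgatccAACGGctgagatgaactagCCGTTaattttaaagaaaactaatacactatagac
The second motif is CGCGGATC (GATCCGCG), the octamer known from plant histone promoters. HTA10 is at chr1:18926771-18926810 on the plus strand, HTA6 at chr5:24116299-24116366 on the minus strand and HTA13 at chr3:7229292-7229359 on the plus strand.
HTA10: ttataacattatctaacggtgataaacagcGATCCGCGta
HTA6: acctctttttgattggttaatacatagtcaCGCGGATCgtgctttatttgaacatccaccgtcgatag
HTA13: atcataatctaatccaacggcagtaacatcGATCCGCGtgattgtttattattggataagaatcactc
AACGG occurred in 16 of 26 windows of G2/M genes (61.5%) and in 11 of 18 windows of core histone genes (61.1%). It occurred in 3 of 20 replication genes (15.0%), in 7 of 21 inhibitor and endocycle genes (33.3%) and in 3510 of 15367 windows of all tested protein-coding genes (22.8%). The octamer CGCGGATC was in 3 of the 18 histone windows (16.7%) and in none of the other 3 lists. Among all tested protein-coding genes it was in 24 of 15367 windows (0.156%), and among all protein-coding genes in 37 of 27443 (0.135%). In the stretches of HTA10 and HTA13 AACGG also occurs, in lower case and apart from the octamer. Whether either motif bears on the changes of these genes was not tested. The counts describe letters in these windows only.

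Inhibitors of cyclin-dependent kinases and activators of the endocycle held the largest falls among the 5 cell cycle lists. Of 17 tested, 8 fell and 2 rose, and the median was -0.41. LGO, a SIAMESE-related inhibitor that pushes cells from division into endoreduplication, was at 94.6, 81.5, 93.6, 104 and 91.4 CPM under mock and at 4.67 to 8.44 CPM (median 5.03) with RGF1. SIM (SIAMESE), the founding member of that family, was at 97.4, 104, 119, 136 and 160 CPM and 7.07 to 18.1 CPM (median 11.9). The groups lay far apart for both genes, with log2 fold changes of -3.96 ± 0.15 (adjusted p = 2.6e-16) and -3.31 ± 0.16 (adjusted p = 5.8e-14). FZR2 (CCS52A1), which activates the anaphase-promoting complex in cells entering the endocycle, fell from 72.1, 60.0, 73.8, 54.0 and 64.4 CPM to 11.7 to 21.7 CPM (median 16.7), by 1.97. A further pair of SIAMESE-related genes fell, AT5G02420 (SMR3) by 1.63 and AT2G28870 (SMR10) by 2.07. Of the KRP inhibitors, KRP7 fell by 1.17, KRP2 by 1.33 and KRP6 by 0.85. FZR3 and AT2G32710 (KRP4) were called higher by 0.53 and 0.41, but FZR3 lost the call under total-count scaling and KRP4 in 5 of 19 alternative settings.

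The other 7 tested members were not called, and their groups overlapped. These were SMR4 at -0.41, AT1G08180 (SMR2) at -0.12, AT5G40460 (SMR6) at -0.0082, AT1G10690 (SMR8) at -0.19, KRP3 at -0.34, KRP5 at -0.013 and FZR1 at 0.20.

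Among upstream regulators of the cycle, 3 of 19 tested rose and 2 fell, a share below that of all genes. The split was 2 higher and 5 lower under total-count scaling, 3 and 4 with the mitochondrial share as a covariate, and 3 and 0 with the replicate block. MYB3R4, an activator of G2/M transcription, rose from 24.6, 24.4, 20.9, 20.22 and 29.7 CPM to 33.8 to 54.6 CPM (median 43.2), with separate groups and a change of 0.91 ± 0.14. CYCD3;2, a G1 cyclin, rose by 0.66, and RBR1, the retinoblastoma homologue, by 0.37. RBR1 was not called under total-count scaling. MYB3R1 fell by 0.32 and CYCD4;1 by 0.61, each lost in 4 of 19 alternative settings. CDKA;1, the main cyclin-dependent kinase, was at 0.23 ± 0.13 and was not called. All 5 nucleolar and ribosome biogenesis genes rose, with a median of 0.57, of which 3 were called under total-count scaling and 4 with the replicate block. NUC-L1 (nucleolin) rose from 610, 706, 739, 767 and 837 CPM to 1216 to 1568 CPM (median 1321), and FIB1 (fibrillarin) by 0.84.

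**Figure D2:**
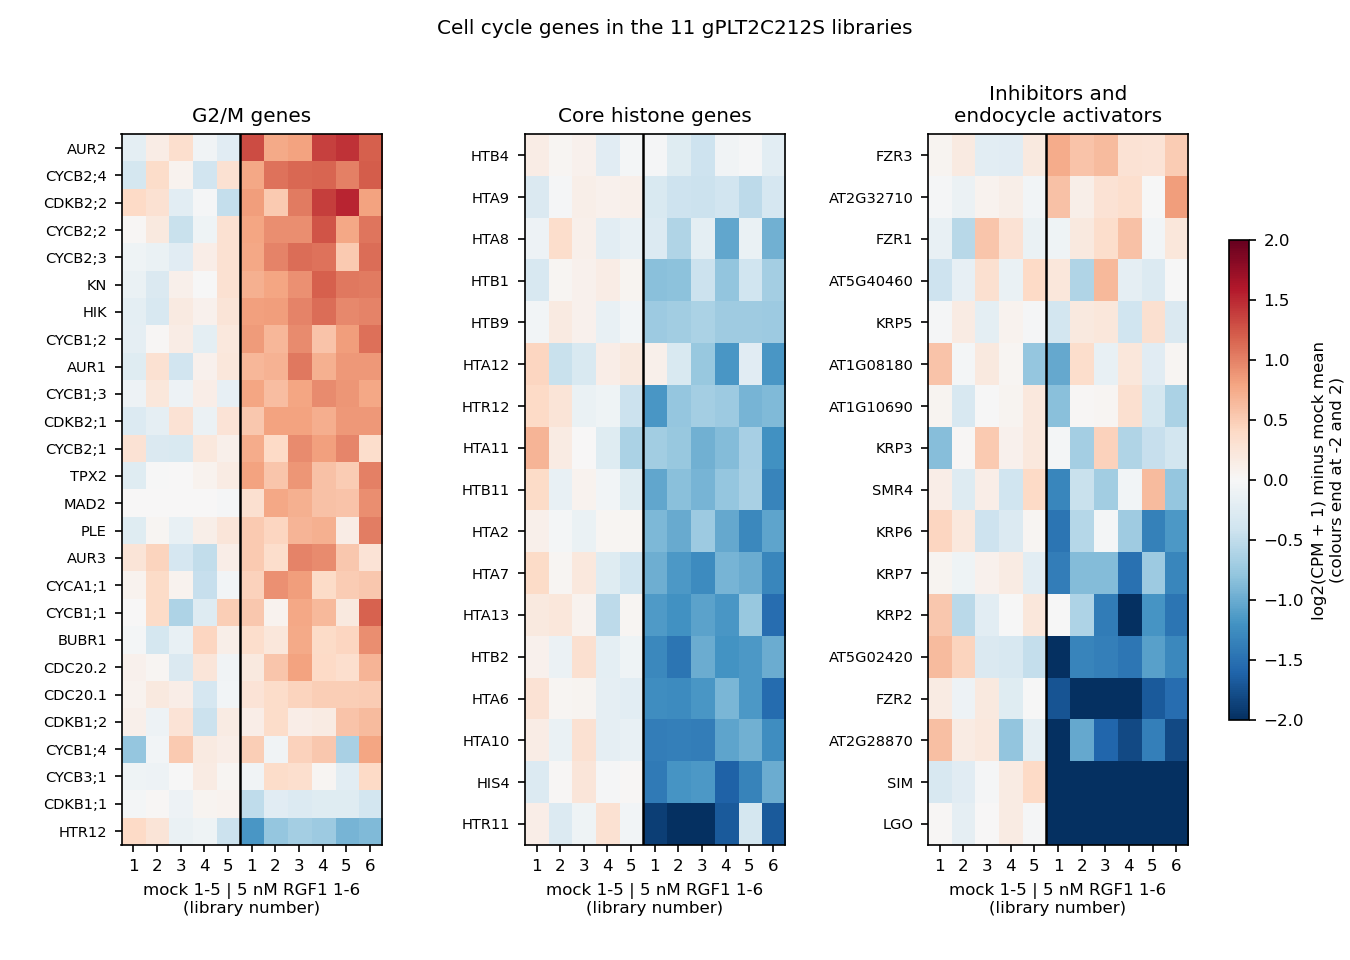
Each square is 1 gene in 1 library of gPLT2C212S, coloured by log2(CPM + 1) minus the mean of the 5 mock libraries, with the colours ending at -2 and 2. Columns are mock libraries 1 to 5 and, right of the line, 5 nM RGF1 libraries 1 to 6. Rows are the tested members of 3 lists ordered by their response, with most G2/M rows red on the right, most histone rows blue and the darkest blue at SIM and LGO.

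Markers of root cell types moved in opposite directions, and they are set beside the gene groups above because tissue sections can differ in cell content. The summed CPM of 7 root cap genes was between 686 and 731 in the mock libraries and between 163 and 280 in the treated ones. Of these 7 genes 6 fell, with a median of -1.51. CEL5, a cellulase of the outer cap, was at 417, 452, 473, 469 and 440 CPM and 72.0 to 141 CPM (median 109), with separate groups and a change of -2.05 ± 0.14. BRN1 and BRN2, NAC factors of cap maturation, each fell by 1.51. FEZ, which drives divisions of cap stem cells, fell from 10.9, 6.60, 9.22, 7.27 and 8.67 CPM to 0.322 to 1.81 CPM (median 1.19), by 2.80. SMB, the third NAC factor, fell by 0.87 and BFN1, a nuclease of dying cap cells, by 0.92, though BFN1 lost the call in 7 of 19 alternative settings. ACR4, a receptor kinase of cap and epidermal stem cells, was at 0.36 ± 0.23 and was not called.

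Xylem genes rose from very low levels. The summed CPM of 13 xylem genes was 33.0 to 37.7 in the mock and 68.4 to 105 in the treated libraries. Of 7 tested, 6 rose and 1 fell, and all 7 had separate groups. LAC4 and LAC17 passed the expression filter only through the treated libraries, so their direction in this count was fixed by the filter. XCP1, a protease of maturing vessels, was at 1.76, 5.94, 4.88, 1.58 and 4.002 CPM under mock and 11.8 to 23.2 CPM (median 17.41) with RGF1. LAC4, a lignin-polymerising laccase, was at 0.352, 0, 1.08, 0.316 and 0.334 CPM and 5.50 to 19.3 CPM (median 10.3). The log2 fold changes were 2.25 ± 0.28 and 4.49 ± 0.47. XCP2 rose by 1.85, and CESA4, a subunit of the secondary wall cellulose synthase, by 2.46. LAC17 had 2 counts over the 5 mock libraries and 128 over the 6 treated ones, a ratio per nuclear count of 56.6 with a 95% counting interval of 15.4 to 473. ACL5, which makes thermospermine and delays vessel maturation, fell from 23.56, 21.8, 21.7, 23.7 and 20.7 CPM to 6.85 to 11.8 CPM (median 9.07), by 1.24. Too low to be tested were CESA8, with 1 and 86 counts over the mock and treated libraries, and IRX9, with 4 and 44. The vessel identity gene VND7 had 12 counts in each group. The remaining untested members VND6, MYB46 and MYB83 had 5 and 7, 6 and 19, and 4 and 3 counts.

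Most listed genes of differentiating endodermis and phloem were too low to be tested, and their counts went both ways. The Casparian strip genes CASP1 and CASP2 had 0 counts in the 5 mock libraries and 26 and 23 counts in the 6 treated ones. The endodermal peroxidase gene PER64 had 1 and 19 counts, and the sieve element genes SEOB and SEOA 1 and 52, and 12 and 43. CASP4 and CASP5 had 5 and 3, and 0 and 1 counts. The phloem genes NAC086, NAC045, NEN4 and DOF2.4 had fewer counts in the treated libraries, at 33 and 14, 22 and 15, 16 and 7, and 55 and 18, and BRX had 32 and 41. Of 3 tested genes of differentiating endodermis, ESB1 rose by 1.02 and GSO1, a receptor for Casparian strip integrity, fell by 1.54, both with overlapping groups. MYB36, the master regulator of the strip, was at 0.30 ± 0.26 and was not called. SUC2, the sucrose transporter of phloem companion cells, rose by 1.56 from at most 2.84 CPM under mock, with overlapping groups, as the only called member of 5 tested phloem genes. CALS7 was at 0.21 and was not called.

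Ground tissue and epidermal regulators fell in part. Of 6 ground tissue genes 3 fell: SHR, the mobile factor that specifies endodermis, by 0.61, and the zinc finger factors JKD by 0.51 and NUC by 0.40. SHR was at 36.6, 39.9, 44.5, 39.2 and 50.4 CPM and 20.8 to 36.1 CPM (median 26.2), with separate groups. SCR and MGP, targets of SHR, were at -0.0016 and -0.029 and were not called. Of 4 tested root hair genes 3 fell, as RSL1 fell by 1.71, RHD6 fell by 0.92 and LRX1 fell by 1.496. RSL1, a factor that primes hair cells, was at 21.4, 22.4, 26.0, 19.6 and 21.3 CPM and 5.33 to 8.06 CPM (median 6.69), with no overlap. The fourth, RBOHC, an NADPH oxidase of growing hairs, was at 14.8, 12.9, 13.0, 13.6 and 13.0 CPM under mock and spread over 5.50 to 23.8 CPM (median 12.7), and was not called. Of 8 tested genes of epidermal patterning 4 fell: WER by 0.97, ETC1 by 1.97, GL3 by 0.79 and TTG1 by 0.42, while GL2 was at -0.092 and was not called. TTG1 lost the call without treated library 4.

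The labelled tissue was checked against what a root tip should and should not hold. The stem cell gene WOX5 was near the floor, with 12 counts in the mock and 16 in the treated libraries. The hair genes EXPA7 and EXPA18, active in elongated hairs, had 3 and 0 counts in each group. Green tissue markers summed to at most 17.7 CPM under mock and 33.8 CPM with RGF1. RBCS1A, the small subunit of Rubisco, had 2 and 5 counts, CAB2 had 0 and 2, and LHCB1.3 rose by 1.303, from 5.98, 6.27, 7.87, 6.64 and 10.7 CPM to 13.6 to 24.4 CPM (median 19.0). The part that the cell content of the sections played in the changes above and below was not tested.

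Cell wall genes changed strongly and in both directions. The extensins, structural glycoproteins that crosslink into the wall, rose in all 5 tested members, with a median of 2.30. EXT3, the most abundant, was at 3651, 3159.6, 3655, 3645 and 4269.6 CPM under mock and 5659 to 10362 CPM (median 7384) with RGF1. EXT4 was at 9.49, 7.26, 7.32, 5.06 and 8.34 CPM and 39.2 to 93.9 CPM (median 56.9). The groups were separate in both, with log2 fold changes of 1.09 ± 0.16 and 3.09 ± 0.24. A second list held genes that RefSeq names proline-rich extensin-like. This list was drawn up after values had been seen. All 10 tested members were higher, with a median of 2.36. AT2G43150 was at 374, 215, 254, 210 and 252 CPM and 1210.2 to 3014 CPM (median 1678), a change of 2.81 ± 0.21. AT1G23720 rose by 2.35, AT1G26250 by 2.71 and AT3G54580 by 2.63. These sequences are repetitive and alike, so that reads may have been split or shared among them and the members do not count as independent.

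Of 13 tested XTH genes, whose enzymes cut and rejoin xyloglucan, 6 fell and 4 rose. XTH16 was at 44.3, 35.0, 40.1, 30.7 and 22.7 CPM and 0 to 3.22 CPM (median 1.75), with no overlap and a change of -4.31 ± 0.30. XTH5 fell from 105, 120, 126, 139 and 115 CPM to 56.0 to 61.2 CPM (median 59.8), by 1.02, and XTH8 by 1.33. XTH21 had 91 counts over the mock and 2 over the treated libraries, a ratio of 0.0194 per nuclear count with a 95% counting interval of 0.00232 to 0.0723. XTH31 had 1 and 107 counts, a ratio of 94.7 with an interval of 16.6 to 3774.5. XTH30 rose by 2.68, from 1.05, 2.97, 1.63, 0.948 and 0.667 CPM to 3.92 to 17.3 CPM (median 9.58).

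Among 11 tested alpha-expansins, which loosen the wall, 5 rose and 3 fell. EXPA8 was at 0.703, 0, 0.271, 1.26 and 0.667 CPM under mock and 16.6 to 55.6 CPM (median 32.5) with RGF1. EXPA11 was at 101, 75.9, 91.4, 82.2 and 63.4 CPM and 11.3 to 22.6 CPM (median 17.64). Neither had overlapping groups, and the changes were 5.75 ± 0.45 and -2.28 ± 0.16. EXPA1 rose by 2.52 and EXPA15 fell by 2.12. Primary wall cellulose synthesis fell in 5 of 9 tested genes and rose in none. CESA6, a cellulose synthase subunit, went from 251, 208, 203, 192 and 165 CPM to 105 to 135 CPM (median 122), by -0.72, with separate groups. COB, which orients microfibrils, fell by 0.52 and CESA1 by 0.39.

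Aquaporins split evenly, with 4 higher and 4 lower of 11 tested. PIP1B rose from 213, 163, 173, 184 and 151 CPM to 285 to 421 CPM (median 319), by 0.96, and PIP1C from 194, 176, 138, 125 and 118 CPM to 214 to 275 CPM (median 235), by 0.69, both with separate groups. PIP1;5 rose by 3.69 from at most 1.76 CPM under mock, with overlapping groups. PIP1;4 fell from 22.9, 16.5, 19.0, 14.9 and 15.0 CPM to 4.22 to 11.7 CPM (median 6.56), by 1.23, with no overlap. The PIP1 genes are close in sequence, and single values within them are uncertain.

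Peroxidases of class III, which make or consume hydrogen peroxide at the wall, held a wide range of changes. Of 18 tested 9 rose and 6 fell, and the 16 with over 3 counts in each group ranged from -3.62 to 5.70 on the log2 scale. PRX71 (AT5G64120) had 2 counts over the mock and 620 over the treated libraries, a ratio of 274 per nuclear count with a 95% counting interval of 75.6 to 2270. Its neighbour AT5G64100 (PRX69) was at 5.98, 1.65, 2.98, 0 and 0.334 CPM under mock and 67.5 to 191 CPM (median 109) with RGF1, a change of 5.70 ± 0.38. AT1G71695 (PRX12) rose from 3.16, 6.27, 4.07, 3.79 and 3.67 CPM to 28.9 to 51.2 CPM (median 37.6), by 3.22. In all 3 every treated library lay above every mock library. In the other direction AT4G30170 (PRX45) was at 217, 182, 187, 142 and 123 CPM and 6.03 to 28.2 CPM (median 11.6), a change of -3.62 ± 0.22. RCI3 (PRX3) was at 218, 188, 185, 149 and 128 CPM and 18.9 to 31.8 CPM (median 25.9), and AT4G11290 (PRX39) fell by 3.44. Neither PRX45 nor RCI3 had overlapping groups.

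The list of genes that make, clear or regulate reactive oxygen species gave 4 higher and 1 lower calls of 14 tested, a share below that of all genes. The catalase gene CAT3 was at 4.57, 6.27, 3.80, 8.22 and 6.67 CPM and 18.4 to 39.3 CPM (median 24.7), and CAT1 at 18.3, 31.3, 25.8, 26.2 and 29.7 CPM and 56.0 to 85.0 CPM (median 69.4). The groups were separate for both, with changes of 2.16 ± 0.22 and 1.44 ± 0.13. CAT2 rose by 0.57, a call that total-count scaling did not give. The cytosolic superoxide dismutase CSD1 rose by 0.84, and the iron superoxide dismutase gene FSD1 fell by 0.43 with overlapping groups. CSD2 and MSD1 were at 0.25 and -0.095 and were not called.

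Glutathione S-transferases, which conjugate glutathione to reactive compounds, gave 8 higher and 11 lower calls of 24 tested. GSTF6 was at 1.76, 0.660, 2.71, 0.632 and 1.67 CPM and 18.1 to 46.97 CPM (median 30.6), and GSTU14 at 39.4, 30.7, 25.5, 32.9 and 23.0 CPM and 0 to 4.52 CPM (median 2.62). Both had separate groups, and their changes were 4.36 ± 0.30 and -3.62 ± 0.29. GSTF2 rose by 5.21 and GSTF7 by 4.85, each from under 1 CPM in every mock library. GSTF9 fell from 455, 602, 559, 529 and 599 CPM to 174 to 283 CPM (median 248), by 1.21.

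Genes for hormone transport and response fell more often than they rose in the auxin and cytokinin lists. Of 15 tested auxin transport and synthesis genes 7 fell and 3 rose. TAA1, which makes the auxin precursor indole-3-pyruvate, was at 43.2, 34.0, 42.0, 34.1 and 35.0 CPM and 6.04 to 13.9 CPM (median 10.7). The efflux carrier gene PIN4 was at 59.8, 55.4, 47.2, 41.7 and 56.7 CPM and 10.5 to 25.3 CPM (median 18.7). Both had separate groups, with changes of -1.83 ± 0.16 and -1.47 ± 0.16. PIN7 fell by 1.23 and PIN3 by 0.80, also without overlap, whereas the carrier gene PIN2 was at -0.014 ± 0.10 and was not called. The ABC transporters ABCB19 and ABCB1 rose by 0.47 and 0.47, and total-count scaling gave neither call. Of 11 tested Aux/IAA repressor genes 4 fell and 2 rose, with IAA33 falling by 1.61, IAA7 by 0.57 and IAA2 rising by 0.60.

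Type-A response regulators, which are induced by cytokinin and dampen its signal, fell in 4 of 6 tested members and rose in none. ARR5 was at 54.1, 46.2, 46.4, 45.2 and 36.4 CPM and 10.6 to 18.7 CPM (median 14.5), with separate groups and a change of -1.65 ± 0.15. ARR6 fell by 2.05, ARR4 by 0.49 and ARR9 by 0.59, and the last pair lost the call in 2 and 3 of 19 alternative settings. The replicate block gave 2 lower calls in the list, and ARR8 and ARR3, at 0.057 and -0.30, were not called in the main fit. The summed CPM of the list overlapped between the groups, at 8847 to 14527 under mock and 7370 to 25406 with RGF1. ARR5, at most 54.1 CPM, made up little of that sum, so it does not give the level of a typical member. Gibberellin genes gave 4 higher and 2 lower calls of 9. The receptor gene GID1B rose from 7.38, 9.24, 8.14, 8.85 and 12.7 CPM to 16.3 to 23.4 CPM (median 20.5), by 1.13. GID1A rose by 0.95, the DELLA repressor gene GAI by 0.87 and GA20OX3, which makes gibberellin precursors, by 0.84, while GA20OX2 fell by 0.98. In the brassinosteroid list 3 of 11 rose and 2 fell. BR6OX1 and DET2, biosynthetic genes, fell by 0.94 and 0.68, and CYP90D1 and CPD rose by 2.33 and 0.38. Total-count scaling did not call CPD and gave 1 higher and 2 lower calls in the list.

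Growth-regulating factors gave 1 higher and 2 lower calls of 9 tested, a share below that of all genes. GRF6 fell by 1.06 and GRF1 by 0.56, and AN3, the coactivator of these factors, rose by 0.44, a call lost under total-count scaling. Of 8 tested CLE peptide genes 3 rose and 1 fell, whereas 1 was higher and 2 lower under total-count scaling and likewise with the mitochondrial share as a covariate. CLE5 was at 2.46, 0.990, 0.814, 0.316 and 1.33 CPM under mock and 25.6 to 35.7 CPM (median 30.6) with RGF1. The groups lay far apart, with a change of 4.72 ± 0.26 (adjusted p = 4.8e-13). CLE13 fell from 13.7, 9.24, 10.3, 5.06 and 4.34 CPM to 0.403 to 3.32 CPM (median 2.01), by 2.02. CLE41, a signal of the vascular cambium, was called higher by 0.73 and lost the call in 6 of 19 alternative settings.

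Genes of defence-related indole metabolism were called in both directions. Of 11 tested genes 6 rose and 2 fell, while CYP83B1 and TSA1 were at -0.068 and 0.23 and were not called. CYP71A12, which converts indole-3-acetaldoxime for camalexin and related compounds, had 1 count over the mock and 370 over the treated libraries, a ratio of 327 per nuclear count with a 95% counting interval of 58.4 to 12967.1. PEN2, a glucosidase of indole glucosinolate breakdown, rose from 40.4, 48.8, 46.4, 48.3 and 38.0 CPM to 69.9 to 89.7 CPM (median 84.2), by 0.91. MYB51 and PAD3 rose by 3.24 and 3.10 from at most 1.05 CPM in any mock library. CYP71A12, MYB51 and PAD3 passed the expression filter only through the treated libraries, so their direction in the count was fixed by the filter. CYP79B2, which makes indole-3-acetaldoxime, fell from 41.1, 54.8, 50.2, 46.1 and 57.7 CPM to 19.9 to 30.4 CPM (median 28.1), by 0.92, without overlap. Stress WRKY factors rose in 4 of 7 tested members and fell in 1. WRKY33 went from 16.9, 20.8, 23.9, 19.9 and 20.7 CPM to 30.1 to 49.5 CPM (median 37.6), by 0.92, WRKY45 rose by 3.22 and WRKY48 by 1.59. None of 5 pathogenesis-related genes was high enough to test. FRK1, a kinase gene induced by bacterial flagellin, had 0 counts in the mock and 78 in the treated libraries, while PR1 had 0 and 1 and PR5 had none in either group.

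In phenylpropanoid synthesis 5 of 13 tested genes rose and none fell, a share of calls in either direction near that of all genes. FAH1, of syringyl lignin synthesis, was at 2.11, 0, 0.271, 0.316 and 0.334 CPM and 5.11 to 12.9 CPM (median 9.66), with separate groups and a change of 3.99 ± 0.46. 4CL1 rose by 1.88 and C4H by 0.57. In the flavonol branch 1 of 6 rose and 3 fell: TT5 (chalcone isomerase) rose by 2.51, and FLS1 (flavonol synthase) and the activator gene MYB12 fell by 1.05 and 0.98. Clock genes gave 3 higher and 1 lower calls of 13, a share below that of all genes. LNK1 rose by 0.89, LNK2 by 0.73 and RVE1 by 1.68, and PRR5 fell by 0.46. Heat shock genes rose in 3 of 5 tested members. HSP90.1 was at 31.6, 32.3, 16.5, 44.9 and 41.4 CPM and 72.4 to 175 CPM (median 86.3), and HSP101 at 10.9, 9.90, 10.6, 14.5 and 12.01 CPM and 16.7 to 40.0 CPM (median 24.7). Their groups were separate, with changes of 1.73 ± 0.23 and 1.24 ± 0.20.

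Outside the lists, 893 genes had a call of at least 2-fold, averaged 20 counts or more and had groups that did not overlap, and the 10 with the smallest p in each direction were taken. The higher ones were AT1G33790 (a jacalin lectin) by 3.88, AT3G20360 (a TRAF-like protein) by 5.04, AT2G25450 (an oxygenase) by 2.14, TPS8 (trehalose phosphate synthase family) by 2.14, and AT4G38540 (an FAD/NAD(P)-binding oxidoreductase) by 2.87. The others were AT4G08850 (a receptor-like kinase) by 2.46, AT1G30730 (a berberine bridge-type enzyme) by 2.81, AT1G74790 by 1.92, PEN3 (an ABC transporter) by 1.81 and AT4G16563 (an aspartyl protease) by 3.64. AT3G20360 was at 2.46, 0.990, 1.90, 1.90 and 0.334 CPM and 44.9 to 60.0 CPM (median 49.8). PEN3, which exports indole compounds in pathogen defence, was at 28.8, 33.3, 28.2, 32.5 and 30.3 CPM and 98.0 to 118 CPM (median 105), a range that no mock library approached.

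The lower ones had varied annotations. AT1G09750, an aspartyl protease, was at 155, 101, 125, 124 and 115 CPM and 1.33 to 4.43 CPM (median 3.38). AT1G57590, a pectin acetylesterase, was at 177, 111, 139, 124 and 87.4 CPM and 2.0003 to 5.73 CPM (median 3.06). Both had groups far apart, with log2 fold changes of -5.34 ± 0.18 and -5.17 ± 0.21. XPL1, a phosphoethanolamine methyltransferase of phosphocholine synthesis, went from 437, 408, 419, 504 and 411 CPM to 84.0 to 112 CPM (median 101), by -2.13. GMD1, which makes the precursor of GDP-fucose, fell by 2.30, AT5G35740 (a carbohydrate-binding X8 protein) by 4.43, and AT1G62660 (a glycosyl hydrolase of family 32) by 3.03. AT4G28650 (a receptor-like kinase) fell by 2.67, AT5G62330 by 3.85, ARP1 (an RNA-binding protein) by 2.27 and AT4G30650 (a low temperature and salt responsive protein) by 2.94.

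The dose could be examined within the line without the mock libraries. Between 5 nM and 0.3 nM 1627 of 16032 genes were called (10.1 percent), 598 higher (3.73 percent) and 1029 lower (6.42 percent) at 5 nM. Total-count scaling moved the median gene by -0.41 and gave 61 higher and 5309 lower calls, so that small differences between the doses depend on the scaling. The share of the 2 mitochondrial loci also differed, at 45.0 to 63.2% in the 0.3 nM and 60.0 to 70.4% in the 5 nM libraries. With that share as a covariate 1371 genes were called, of which 648 were among the 1627. Many calls between the doses thus depend on this choice too. The inhibitor genes LGO and SIM were at 33.8 ± 9.76 and 41.3 ± 16.4 CPM at 0.3 nM (n = 5), and fell further at 5 nM, by 2.46 and 1.70. RCI3 was at 132 ± 24.3 CPM at 0.3 nM and was lower at 5 nM by 2.34. CYP71A12 and PRX71 were higher at 5 nM by 1.89 and 2.69. CLE5 went the other way: it was at 69.5 ± 11.3 CPM at 0.3 nM and at 31.0 ± 3.98 CPM at 5 nM, a difference of -1.12 ± 0.12 (adjusted p = 3.2e-06).

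Of 26 G2/M genes 1 was called between 0.3 and 5 nM, and HIK had a difference of 0.062 ± 0.11. The AP2/PLT genes did differ, with 4 of 5 higher at 5 nM than at 0.3 nM. PLT2 differed by 0.61, AIL6 by 0.60, BBM by 1.09 and AIL5 by 1.55, and PLT1, at 0.19, was not called. PLT2, AIL6 and BBM lost the call under total-count scaling, and AIL6 and AIL5 with the mitochondrial share as a covariate. Against the shared mock libraries 3685 of 16062 genes (22.9 percent) were called at 0.3 nM, and all 5 tested AP2/PLT genes were lower there: PLT2 at -0.34, PLT1 at -1.96, AIL6 at -0.46, BBM at -1.32 and AIL5 at -1.39. Both sets of values share libraries, so their likeness or contrast is not a separate result.

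**Figure D3:**
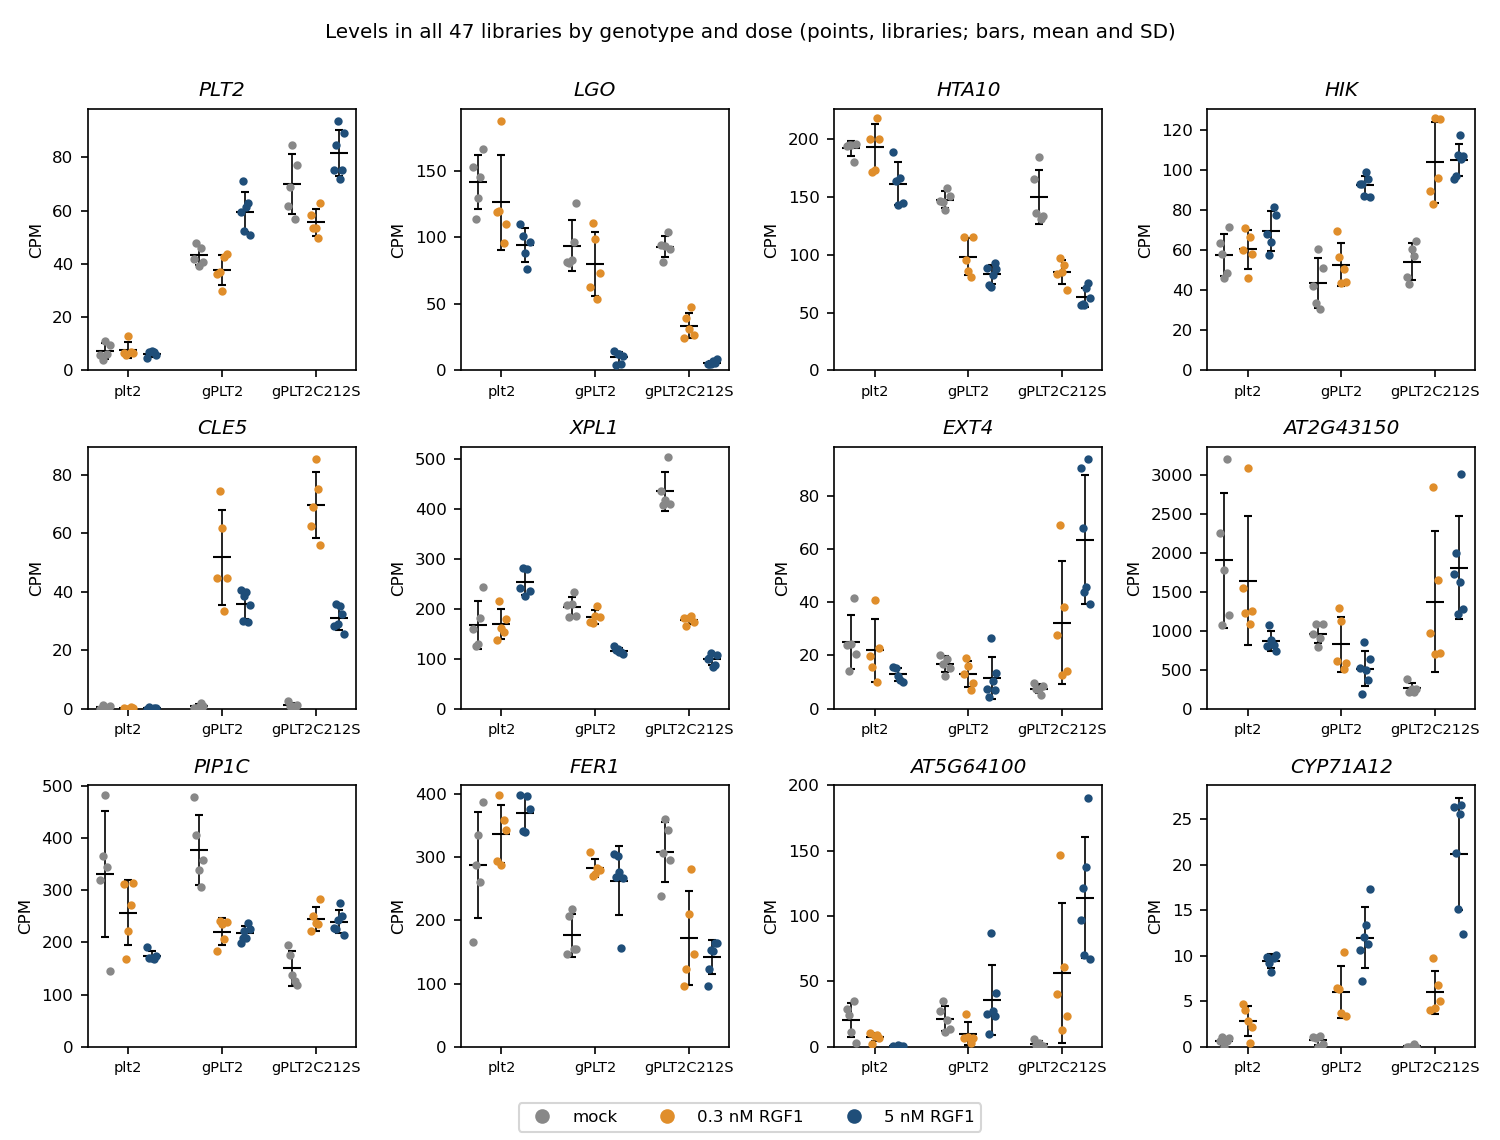
CPM (y axis, linear from 0) of 12 genes in all 47 libraries by genotype and RGF1 dose, points being libraries and bars the mean and SD of a group. LGO was lowest at 5 nM in both transgenic lines, CLE5 was highest at 0.3 nM in them, and EXT4 and AT2G43150 rose with RGF1 in gPLT2C212S from the lowest mock levels of the 3 genotypes.

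The response was then set against that of the line with the unsubstituted transgene, in which 7712 of 16228 genes (47.5 percent) were called at 5 nM. The difference between the responses was tested as an interaction of line and treatment in the 4 groups concerned. It was called for 810 of 16793 genes (4.82 percent), 547 with a higher value in gPLT2C212S (3.26 percent) and 263 with a lower one (1.57 percent). Under total-count scaling, which moved the median gene by -0.29, 259 genes were called, 146 higher and 113 lower. The count ranged from 536 without mock library 5 of gPLT2C212S to 1286 without mock library 1 of that line, and was 1219 without mock library 3 of gPLT2. No G2/M gene, core histone, inhibitor, root cap gene, AP2/PLT factor or RGI receptor was called in this test with edgeR. An unadjusted p under 0.05 was held by 4 of 26 G2/M genes, 4 of 17 core histones and 1 member each of the 17 inhibitors, 7 root cap genes, 5 AP2/PLT factors and 5 receptors. DESeq2 called 1 core histone and 0 members of the other lists. LGO fell by 3.96 in gPLT2C212S and by 3.32 in gPLT2, a difference of -0.64 ± 0.31 (adjusted p = 0.26). HIK rose by 0.96 and 1.03, a difference of -0.064 ± 0.18 (adjusted p = 0.88). Not being called does not show that the lines responded alike.

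Several lists of wall genes were compared with gPLT2 in the same test. All 6 tested extensins and all 12 tested proline-rich extensin-like genes had a higher response in gPLT2C212S than in gPLT2. The extensin-like list was drawn up after values had been seen and shares EXT12 with the extensin list. Its count is therefore no separate support. In gPLT2 itself 3 of 5 extensins and 9 of 10 extensin-like genes fell and none rose. AT2G43150 averaged 261 ± 66.1 CPM in mock and 1809.6 ± 658 CPM in treated libraries of gPLT2C212S. In gPLT2 the means were 964 ± 126 and 513 ± 225 CPM. The difference of the responses was 3.75 ± 0.35 (adjusted p = 9.0e-08), and it rests on a mock level well below that in gPLT2 as well as on the treated level. EXT3 differed by 1.99 and EXT4 by 3.68. Other wall lists gave fewer calls, with 5 of 12 alpha-expansins and 7 of 19 class III peroxidases higher, 2 of 15 XTH genes higher and 1 lower, and 1 of 9 genes of primary wall cellulose synthesis higher. Among aquaporins 9 of 12 had a higher response in gPLT2C212S, while in gPLT2 11 of 12 fell. PIP1C averaged 150 ± 33.3 and 239 ± 21.9 CPM in gPLT2C212S and 378 ± 67.1 and 217 ± 14.05 CPM in gPLT2, so that the treated means were close and the mock means apart. Other higher differences with the smallest p were AT1G26250 (3.74), AT4G08380 (3.69), HRGP1 (3.81) and AT1G51850, a receptor-like kinase gene (2.996).

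Lower differences from gPLT2 were fewer. FER1, the iron-storage ferritin gene, fell from 238, 306, 359, 343 and 294 CPM to 96.7 to 165 CPM (median 152) in gPLT2C212S. In gPLT2 it rose by 0.54, giving a difference of -1.64 ± 0.21 (adjusted p = 1.1e-05). XPL1 fell in both lines, by 2.13 and 0.84, and differed by -1.28. PDF2.5, a defensin-like gene, differed by -1.22, and the loci named U1.8, U1.5 and AT5G07745 by -1.57, -1.90 and -2.25. AT2G12646 (RITF1) rose by 0.31 in gPLT2C212S and by 1.21 in gPLT2, a difference of -0.90 ± 0.16 (adjusted p = 5.0e-04). AN3 and GRF1 were lower by 0.72 and 0.74 in the same test, of which GRF1 lost the call under total-count scaling.

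In plt2, without a PLT2 transgene, 1504 of 15925 genes (9.44 percent) were called at 5 nM, 449 higher (2.82 percent) and 1055 lower (6.62 percent). The interaction of line and treatment was called for 2082 of 16778 genes (12.4 percent), 1075 higher in gPLT2C212S (6.41 percent) and 1007 lower (6.00 percent). Total-count scaling gave 1271. Of 26 G2/M genes 12 had a higher response in gPLT2C212S. KN was at 0.97 ± 0.12 in gPLT2C212S and at -0.053 in plt2, and the difference was 1.07 ± 0.21 (adjusted p = 6.3e-04). Core histone genes had a lower response in 9 of 17, with HTA6 at -1.21 and -0.057 and a difference of -1.10 ± 0.17. LGO averaged 142 ± 20.5 CPM under mock and 94.3 ± 12.9 CPM at 5 nM in plt2, and the responses differed by -3.32 ± 0.20 (adjusted p = 1.0e-12).

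Root cap genes had a lower response than in plt2 in 4 of 7 members, among them CEL5 by -1.40 and FEZ by -2.53, and xylem genes a higher one in 5 of 7, among them XCP2 by 4.24. RGF2 and RGF3 fell in plt2 too, by 1.205 and 1.21, and fell further in gPLT2C212S, with differences of -3.02 and -2.31. RGI3 and RGI4 rose in plt2, by 0.40 and 0.45, and differed by -1.54 and -1.25. The 6 highest differences by p were in the wall and peroxidase genes AT1G23720 (6.01), AT5G64100 (10.77), AT3G28550 (4.89), AT1G71695 (3.93), AT3G54580 (5.38) and AT2G43150 (3.997). In plt2 4 of 5 tested extensins and 9 of 11 extensin-like genes fell, and all 6 and 12 tested for the difference had a higher response in gPLT2C212S. Here too the count of the extensin-like list, drawn up after values had been seen, is no separate support. AT5G64100 averaged 20.5 ± 13.1 CPM under mock and 0.619 ± 0.676 CPM at 5 nM in plt2, so its value rests on opposite movements from different mock levels. The 6 lowest were LGO, AT1G57590 (-4.90), AT1G09750 (-4.40), AT5G35740 (-4.10), XPL1 (-2.67) and AT5G51490, a pectin methylesterase gene (-3.33). Calls in plt2 alone moved with single libraries, from 904 without treated library 5 and 973 without treated library 4 to 2356 without mock library 5.

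**Figure D4:**
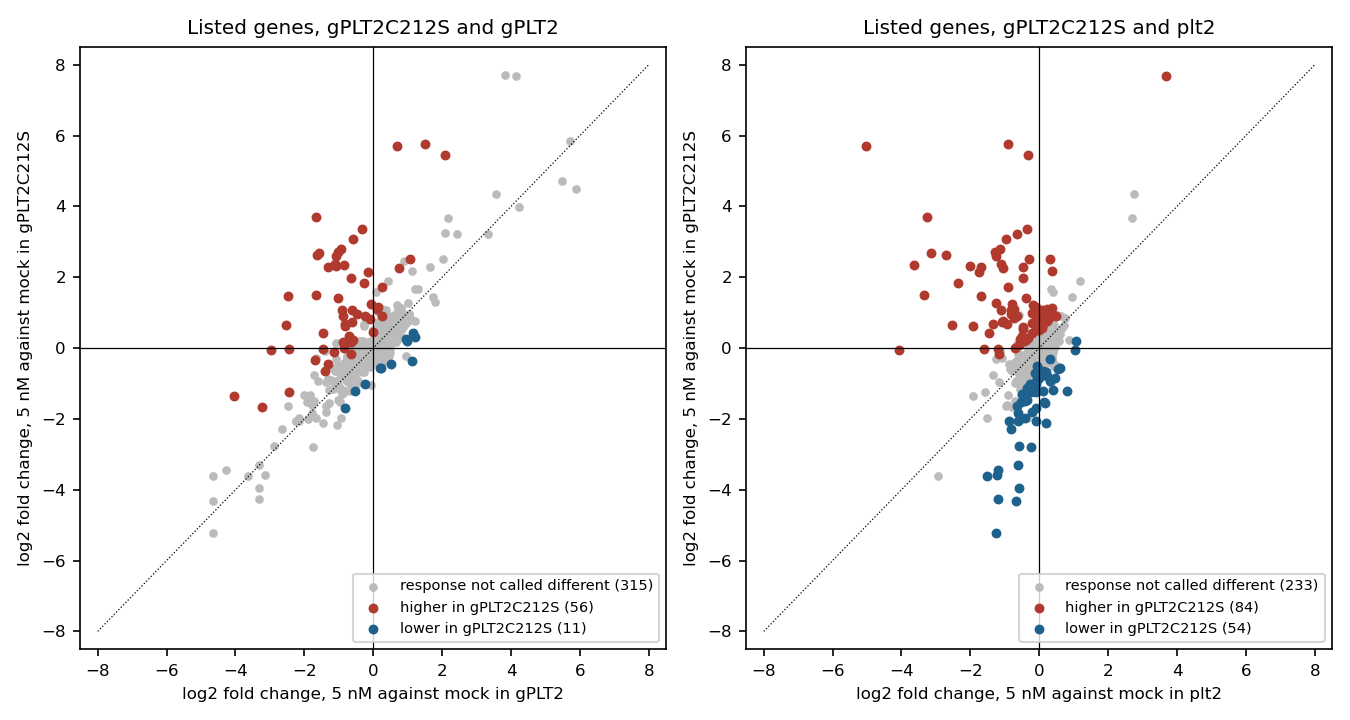
Log2 fold change at 5 nM RGF1 against mock in gPLT2C212S (y axis) against that in gPLT2 (left, 382 listed genes) and plt2 (right, 371 listed genes), with the line of equal response dotted. Red and blue points had a called difference of response, higher in gPLT2C212S for 56 and 84 genes and lower for 11 and 54.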

How the data were processed

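Counts per gene were deposited by the authors as one table of 36823 loci in 47 libraries, with a second table of FPKM values for 25722 loci. Per the labels' protocols, total RNA of dissected root meristematic zones was made into libraries with the Universal RNA-Seq with NuQuant kit. The submitters' processing notes name HISAT2 2.1.0, featureCounts, Subread 2.0.3, DESeq 1.34.0 and the build TAIR10. The strand setting, the gene annotation and the handling of reads that match several genes are not given in the sources used here. The deposited counts were used as they stand, and the deposited FPKM values served only to set levels of AP2/PLT genes side by side per transcript length.

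Tests were edgeR 4.0.16 quasi-likelihood F tests in R 4.3.3 (glmQLFit and glmQLFTest) with filterByExpr at a minimum count of 10, TMM scaling and Benjamini-Hochberg adjustment over all genes tested, called at an adjusted p under 0.05. Each fit held only the groups compared, 5 and 6 libraries in the main comparison, and kept organelle loci. Differences of response were tested as interactions of line and treatment. Printed CPM were computed separately, over nuclear loci with TMM across all 47 libraries. Fold changes of genes with 1 to 3 counts in a group were replaced by the ratio of summed counts per nuclear count with an exact 95% interval, which covers counting error only. The 25 replicate pairs within the 2 groups differed beyond sampling noise (chi-square per degree of freedom 3.041 to 24.61), so that no library was counted as a repeat. The scripts were tested on simulated data with 200 genes changed 2-fold, far fewer than were called in the real main comparison. The main test recovered 160 of them with 11 false calls. The interaction test against gPLT2 recovered 109 with 9 false calls, so that many 2-fold differences of response can go uncalled.

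Of 616 listed genes in 40 lists, 554 were matched by locus code and symbol, 49 by their RefSeq product after the symbols had failed, and 13 were dropped; this second matching departs from the rule first written and was added after the files were read. The members and lists were chosen with earlier results of these data known, and the list of proline-rich extensin-like genes after their values were seen. Genes named are, per list, up to 6 called members with the smallest adjusted p and up to 2 members not called with the largest counts, all tested members of the AP2/PLT, RGI and inhibitor lists, 10 genes per direction outside the lists with at least a 2-fold change, 20 counts or more on average and groups that did not overlap, and 6 genes per direction and interaction. Members too low to be tested were named after their counts were seen. Alternatives were DESeq2 1.42.0 and its size factors, total-count scaling, no expression filter, organelle loci left out, the mitochondrial share as a covariate, a replicate block, all 9 groups in one fit and each library left out in turn. Sequences and gene products are from RefSeq TAIR10.1, in which 36632 of the 36823 loci have an entry.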

Additional observations from a re-analysis of the deposited data

Results flagged for a closer look

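In 436 groups of libraries examined for the named genes, 25 had 1 library standing apart from the rest of its group by Dixon's criterion, which chance alone gives in about 1 in 20 groups. Under mock, library 1 of gPLT2C212S stood high for BRN1 at 118 CPM, ARR9 at 57.7 CPM, AT2G43150 at 374 CPM and FAH1 at 2.11 CPM. The same library stood low for RNR1 at 67.9 CPM, TPS8 at 20.04 CPM and U1.5 at 92.1 CPM. Mock library 5 stood high for AT5G48940 at 172 CPM and XTH31 at 0.334 CPM and low for CESA1 at 250 CPM. Mock library 4 stood high for CYP71A12 at 0.316 CPM and PAD3 at 0.948 CPM and low for AT3G28550 at 389 CPM, and mock library 3 stood high for LAC17 at 0.542 CPM. The mock values of XTH31, CYP71A12, PAD3 and LAC17 lay at or below the floor of 3 counts, so that a few reads set them. At 5 nM RGF1, library 5 stood high for RGF3 at 13.7 CPM, LRX1 at 6.04 CPM, ETC1 at 4.83 CPM, PIN7 at 31.4 CPM, EXT10 at 20.5 CPM and AT3G54580 at 288 CPM. Treated library 4 stood high for GID1A at 19.6 CPM and low for PIN3 at 42.2 CPM and GMD1 at 30.1 CPM. Treated library 1 stood high for GSO1 at 3.54 CPM and treated library 2 for MCM2 at 78.3 CPM.

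Responses to 5 nM RGF1 differed between gPLT2C212S and gPLT2 by the interaction test for the genes below. On the log2 scale, as the response of gPLT2C212S minus that of gPLT2, the values were 3.75 for AT2G43150, 3.74 for AT1G26250, 2.996 for AT1G51850, 3.81 for HRGP1, 1.52 for PIP1C and 3.69 for AT4G08380. The lower ones were -1.28 for XPL1, -1.57 for U1.8, -1.90 for U1.5, -1.64 for FER1, -1.22 for PDF2.5 and -2.25 for AT5G07745. Genes named from the lists had 1.99 for EXT3, 3.68 for EXT4, -0.90 for AT2G12646, -0.72 for AN3 and -0.74 for GRF1. Against plt2 the values were 6.01 for AT1G23720, 10.8 for AT5G64100, 4.89 for AT3G28550, 3.93 for AT1G71695, 5.38 for AT3G54580 and 3.997 for AT2G43150. The lower ones were -3.32 for LGO, -4.90 for AT1G57590, -4.40 for AT1G09750, -4.10 for AT5G35740, -2.67 for XPL1 and -3.33 for AT5G51490. Genes named from the lists had 1.07 for KN, 4.24 for XCP2, -1.10 for HTA6, -1.40 for CEL5, -2.53 for FEZ, -3.02 for RGF2, -2.31 for RGF3, -1.54 for AT4G26540 and -1.25 for AT5G56040.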

How the results depend on the processing

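The count of genes called at 5 nM against mock in gPLT2C212S (6432) stayed within 1.5 times under each of 19 alternatives, from 5111 with total-count scaling to 6975 without an expression filter, and was 5772 to 6406 with 1 library left out. Of 188 named genes called there, 162 were called under all 19 alternatives, 6 in all of the 14 that tested them, and 20 were lost under some; 6 named genes that were not called gained a call, PLT2 with the mitochondrial share as a covariate and without mock library 3 among them. U1.8 and PRR5 were lost in the fit of all 9 groups. Of the called interaction values named, 16 of 17 against gPLT2 and 21 of 21 against plt2 held their calls under all alternatives. No called value changed its direction, while 10 of 29 named genes that were not called, at -0.12 to 0.14, changed sign under some alternative.

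The difference of response from gPLT2 (810 genes) gave 259 with total-count scaling and 536 to 1286 with 1 library left out, and that from plt2 (2082 genes) gave 1271 with total-count scaling. The comparison of 5 nM with 0.3 nM (1627 genes) gave 5370 with total-count scaling and 1084 to 1646 with 1 library left out. With the mitochondrial covariate it gave 1371, of which 648 were shared with the main fit. In plt2 (1504 genes) the count was 2702 with the mitochondrial covariate, 2329 in the fit of all 9 groups and 904 to 2356 with 1 library left out, and 0.3 nM against mock (3685 genes) gave 2047 with the covariate. Total-count scaling moved the split of calls to 3333 higher and 2257 lower in gPLT2, 86 and 1116 in plt2 and 2938 and 551 at 0.3 nM. The cause of these shifts was not tested.

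Deviations of same-numbered mock and treated libraries correlated between -0.255 and 0.0421, other pairs between -0.253 and 0.307, and 0 of 5 mock libraries correlated best with their own number. In the other 4 pairs of groups, same-numbered libraries correlated between -0.176 and 0.129, with at most 1 of 5 pairs over 0.1. By the rule that every pair must exceed 0.1, the numbers did not pair the libraries in any of the 5. A fit with the replicate number as a block called 5446 genes in the main comparison, 622 and 1574 for the differences from gPLT2 and plt2, 1612 between doses, 7246 in gPLT2, 1179 in plt2 and 3825 at 0.3 nM.

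Nuclear depth of 2312124 to 3678400 counts leaves genes near the floor of 3 counts untested.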
